A study of Homo sapiens with 6 samples.

Results

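The glucocorticoid receptor, NR3C1, was described together with 8 genes that glucocorticoids are known to induce: FKBP5, KLF9, ZBTB16, TSC22D3, SGK1, CRISPLD2, SPSB1 and TFCP2L1. The members were taken by gene name, and all 9 were among the 33392 genes of the expression table. They were picked because FKBP5, KLF9 and ZBTB16 stood higher and CRISPLD2 lower after DYRK2 silencing, so their values in that comparison are a description and carry no test. The 6 RNA sequencing libraries are labelled HK-2, a line known as immortalised epithelial cells of the human proximal tubule. Every culture had received TGF-β1, which drives fibrosis, and the labels give 48 h. A scramble siRNA had been used for 3 of the libraries and an siRNA to the kinase DYRK2, here called siDYRK2, for 3. No library without TGF-β1 was analysed here, no glucocorticoid is named in the labels, and the culture medium is not given in the sources used here, so the hormone to which the cells were exposed is unknown. The labels do not say that replicates were separate cultures, and a p-value therefore covers only the spread seen among these libraries, which could be technical.

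The glucocorticoid receptor is a nuclear receptor that waits in the cytoplasm in a complex with HSP90 and immunophilin co-chaperones. After cortisol or dexamethasone binds, it moves to the nucleus, where it binds short palindromic response elements, raises some genes and lowers many inflammatory ones. The induced genes include brakes on the receptor itself, such as FKBP5, and effectors in epithelia, such as the kinase SGK1, which raises sodium uptake in the renal tubule. Several of these genes also answer to other signals, so their levels are not a direct readout of the receptor.

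The windows before the annotated start sites are shown for the 3 members with the largest differences that had an entry in the RefSeq promoter table. They are given 5′ to 3′ on the gene's strand for the 250 bases before the start (RefSeq, GRCh38.p14), with capitals marking the GC box GGGCGG on either strand. The windows are FKBP5, at the downstream of its 2 starts, at chr6:35688916-35689165 (minus strand), KLF9 at chr9:70414658-70414907 (minus strand) and CRISPLD2 at chr16:84819735-84819984 (plus strand).
FKBP5: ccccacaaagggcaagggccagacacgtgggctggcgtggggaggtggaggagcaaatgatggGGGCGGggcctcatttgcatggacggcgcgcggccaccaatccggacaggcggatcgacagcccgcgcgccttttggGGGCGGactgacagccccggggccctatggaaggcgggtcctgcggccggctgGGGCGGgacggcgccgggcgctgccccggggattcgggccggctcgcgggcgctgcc
KLF9: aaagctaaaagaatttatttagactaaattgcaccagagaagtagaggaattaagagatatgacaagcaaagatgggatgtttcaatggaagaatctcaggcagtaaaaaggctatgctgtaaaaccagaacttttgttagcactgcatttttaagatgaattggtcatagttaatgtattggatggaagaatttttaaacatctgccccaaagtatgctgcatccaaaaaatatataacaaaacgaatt
CRISPLD2: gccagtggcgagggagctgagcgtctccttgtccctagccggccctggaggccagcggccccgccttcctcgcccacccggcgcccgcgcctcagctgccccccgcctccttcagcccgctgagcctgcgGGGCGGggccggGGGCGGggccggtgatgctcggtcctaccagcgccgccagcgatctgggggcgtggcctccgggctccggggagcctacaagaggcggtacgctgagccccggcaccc
The KLF9 window was 32.4% G or C with 1 CG pair and 0 GC boxes. The CRISPLD2 window was 77.6% G or C with 27 CG pairs and 2 GC boxes, and the FKBP5 window was 74.8% G or C with 29 CG pairs and 3 GC boxes. Over 35116 windows of the table the median was 58% G or C, and 5% of windows lay under 34.4%, so the KLF9 window was among the poorest in G and C and the other windows were in the upper part of the range.

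The table held 19 windows of 300 bases, from 250 before to 50 after a start, for 7 of the 9 members. The palindromic receptor element, AGAACA and TGTTCT with 3 bases between them, was in 0 of these 19 windows and in 1 of all 35116, and the looser form, GNACA and TGTNC with 3 bases between them, was in 0 of the 19 and in 0.39% of all windows, with both strands searched. The single arm AGAACA, or TGTTCT on the other strand, was in 2 of the 19 member windows and in 14.8% of all windows. These matches lay at an upstream start of FKBP5, on chr6:35728578-35728583, where the word begins on the start base, and at a middle start of SGK1, on chr6:134177851-134177856, where it begins 5 bases after the start base. Both are shown with their neighbouring bases and with the arm in capitals.
FKBP5: caccactaccccAGAACAaactcctacctc
SGK1: ggggttcataacAGAACAgggatagccgtc
These letters are a description of short windows, and more distant sequence was not searched here.

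The siRNA target was lower in its own group. DYRK2 stood at 5.84, 6.06 and 5.96 FPKM (fragments per kilobase of transcript, scaled to the mapped fragments) with the scramble siRNA and at 1.45, 1.54 and 1.49 FPKM with siDYRK2, which was 25.1% of the scramble mean (limma adjusted p = 2.0e-06, exact two-sided permutation p = 0.1, the smallest that 3 against 3 libraries allow). FPKM summed to between 252317.6 and 255378.2 per library, 26.3% to 27.8% of it mitochondrial. Most transcripts that define the proximal tubule were near absent. Of 16 proximal tubule markers 12 averaged under 0.5 FPKM, and 3 had no row (LRP2, SLC22A6 and SLC22A8). The 13 with a row, of which 1 was tested, summed to 4.70 to 5.19 FPKM in the scramble and 3.82 to 4.19 FPKM in the siDYRK2 libraries. General epithelial markers were present, summing to 338 to 355 FPKM in the scramble and 241 to 252 FPKM in the siDYRK2 libraries. By limma 4 of the 6 (CDH1, KRT18, KRT19 and CLDN4) fell (66.7%, against 17.9% of all tested genes). Of these only CDH1 fell by a ratio of at least 2. The lung and thyroid factor NKX2-1 stood at 26.5 ± 0.895 and 23.4 ± 0.472 FPKM (SD, n = 3). The 5 lung markers with a row summed to 30.5 to 33.9 FPKM and 28.2 to 29.4 FPKM, most of it NKX2-1. Of 8 lung markers 3 had no row (SFTPA1, SCGB1A1 and SCGB3A2) and 2 averaged under 0.5 FPKM. The endothelial markers summed to at most 0.08 FPKM and the fibroblast markers to 0.37 to 0.42 and 0.64 to 0.81 FPKM. The 4 immune markers with a row summed to 11.3 to 17.8 and 17.0 to 17.8 FPKM, nearly all of it CD68, a lysosomal protein gene. The levels of the proximal tubule markers and of NKX2-1 go against the tissue for which HK-2 is known. They put the labelled identity of the cells in question. The part of these marker differences in the results below was not tested.

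**Figure D1:**
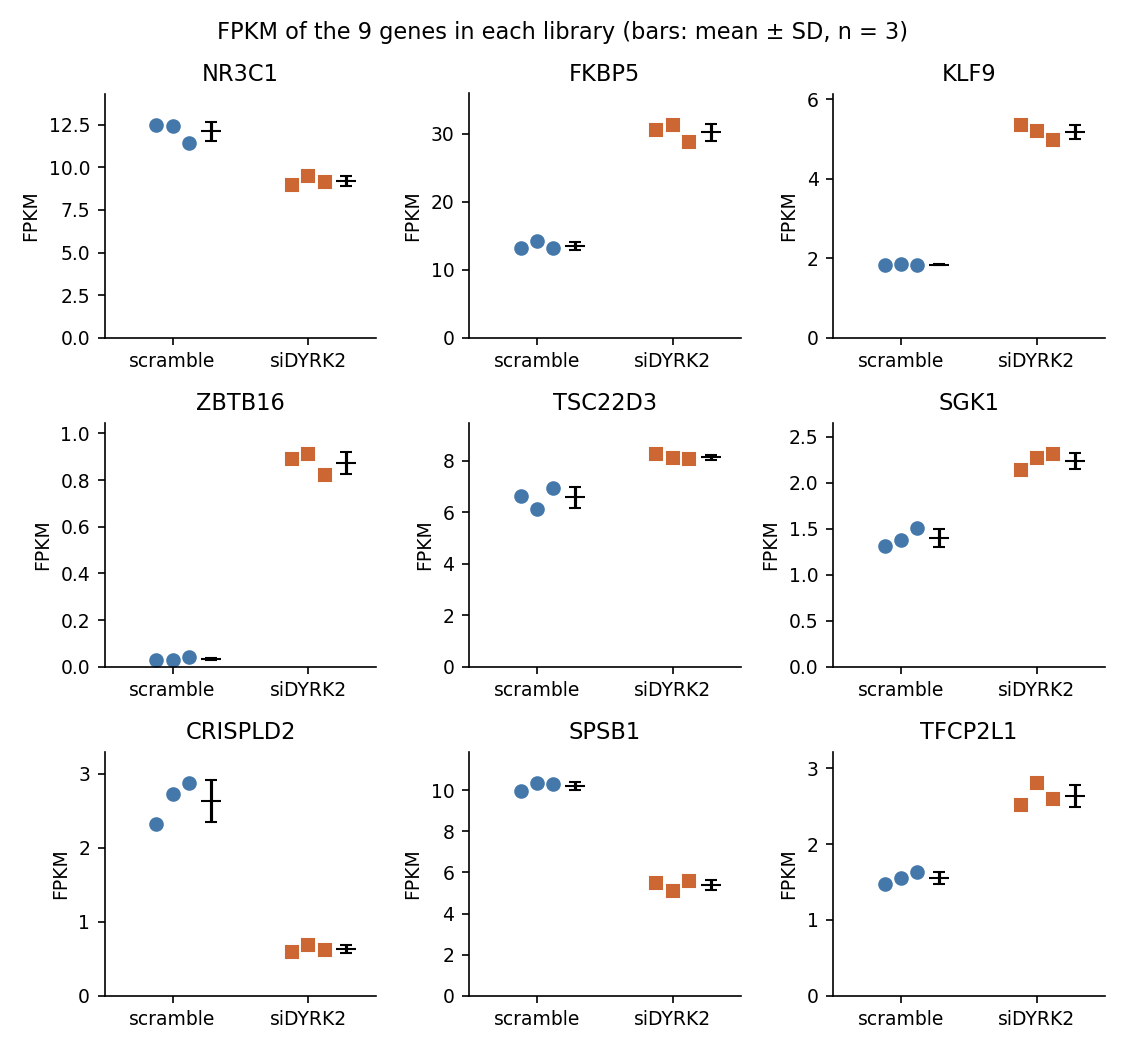
FPKM of each of the 9 genes in the 3 scramble libraries (circles) and the 3 siDYRK2 libraries (squares), with a separate linear axis from 0 for each gene and bars for mean ± SD. The groups do not overlap for any of the 9 genes: NR3C1, CRISPLD2 and SPSB1 are lower with siDYRK2, for CRISPLD2 2.64 against 0.633 FPKM, and the other 6 are higher. Groups do not overlap for 51.7% of all tested genes either, and the 9 were chosen on this comparison, so nothing is read from the count.

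The receptor transcript stood lower after DYRK2 silencing. NR3C1 (ENSG00000113580; GRCh38 chromosome 5, 143277931 to 143435512, minus strand) was at 12.47, 12.43 and 11.46 FPKM with the scramble siRNA and at 8.97, 9.52 and 9.12 FPKM with siDYRK2. Every siDYRK2 library was below every scramble library, and the lowest scramble value was that of replicate 3. The means were 12.1 ± 0.572 and 9.20 ± 0.284 FPKM (SD, n = 3), a ratio of 0.759, and the log2 difference was −0.38 (SE 0.0453). Differences are given as siDYRK2 minus scramble in log2(FPKM + 0.5), a scale that understates the change of low genes, and the SE for members comes from the pooled spread of the 6 libraries. The annotation (GENCODE 29) gives NR3C1 13 coding transcripts, which the gene-level values do not separate, so the hormone-binding alpha and the beta splice form cannot be told apart.

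NR3C1 stood far above the other steroid receptor transcripts described here. The mineralocorticoid receptor NR3C2, its closest relative and another receptor for cortisol, was at 0.13, 0.22 and 0.13 FPKM against 0.04, 0.10 and 0.09 FPKM and was below the 0.5 FPKM mean required for a test. The progesterone receptor PGR averaged 0.00667 FPKM in either group and the oestrogen receptor ESR1 averaged 0.03 and 0.0167 FPKM. Of the enzymes that handle the hormone, HSD11B1, which makes cortisol from cortisone, averaged 0.0133 FPKM and was listed at 0 in the siDYRK2 libraries. HSD11B2, which inactivates cortisol, was at 1.09, 1.19 and 1.48 FPKM against 1.12, 1.22 and 1.18 FPKM, with overlapping groups (log2 difference −0.06, limma adjusted p = 0.67). H6PD, which supplies the cofactor of HSD11B1, fell from 8.97 to 6.82 FPKM (limma adjusted p = 0.0019), and the steroid reductase SRD5A1 rose from 9.29, 9.79 and 9.63 FPKM to 12.52, 11.83 and 11.56 FPKM (limma adjusted p = 0.0015). These were the 2 of 3 tested genes of the hormone list that passed, where 38.3% of all tested genes did, while 7 were below the filter and 2 had no row.

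Among the feedback regulators of the receptor, FKBP5 stood about as high as NR3C1 in the scramble libraries and well above it with siDYRK2. FKBP5 encodes FKBP51, an immunophilin co-chaperone that lowers the hormone affinity of the receptor and is a standard marker of its activity. FKBP5 (ENSG00000096060; GRCh38 chromosome 6, 35573585 to 35728583, minus strand) was at 13.25, 14.16 and 13.14 FPKM with the scramble siRNA and at 30.61, 31.23 and 28.84 FPKM with siDYRK2. The groups were far apart, with no siDYRK2 library below 28.84 FPKM. The means were 13.5 ± 0.560 and 30.2 ± 1.24 FPKM (SD, n = 3), a ratio of 2.24 and a log2 difference of 1.13 (SE 0.0473). Of the 15121 genes tested, 50 had a more positive difference.

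TSC22D3 encodes GILZ, a leucine zipper protein that carries much of the anti-inflammatory action of glucocorticoids. TSC22D3 (ENSG00000157514; GRCh38 chromosome X, 107713221 to 107777342, minus strand) was at 6.63, 6.14 and 6.95 FPKM with the scramble siRNA and at 8.25, 8.11 and 8.07 FPKM with siDYRK2. The siDYRK2 libraries were all higher, and they spread less than the scramble libraries. The means were 6.57 ± 0.408 and 8.14 ± 0.0945 FPKM (SD, n = 3), a ratio of 1.24, and the log2 difference of 0.29 (SE 0.0492) was the smallest in size of the 9. The annotation gives it 17 coding transcripts with separate starts, and 71 of its 4766 exonic bases are shared with NCBP2L on the opposite strand.

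The 3 transcription factors among the targets all stood higher. KLF9, a Krüppel-like factor that is itself a feedback repressor of receptor targets, was at 1.82, 1.86 and 1.84 FPKM with the scramble siRNA and at 5.34, 5.19 and 4.98 FPKM with siDYRK2. All siDYRK2 values were above all scramble values, and the scramble values differed by only 0.04 FPKM. The means of KLF9 (ENSG00000119138; GRCh38 chromosome 9, 70384597 to 70414624, minus strand) were 1.84 ± 0.0200 and 5.17 ± 0.181 FPKM (SD, n = 3), a ratio of 2.81 and a log2 difference of 1.28 (SE 0.0276). Of the tested genes 36 had a more positive difference.

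ZBTB16 encodes PLZF, a zinc finger repressor that many cell types switch on under dexamethasone. ZBTB16 (ENSG00000109906; GRCh38 chromosome 11, 114059593 to 114250676, plus strand) was listed at 0.03, 0.03 and 0.04 FPKM with the scramble siRNA and at 0.89, 0.91 and 0.82 FPKM with siDYRK2. It went from near the smallest value the table can print to a low but steady level. The means were 0.0333 ± 0.00577 and 0.873 ± 0.0473 FPKM (SD, n = 3), a ratio of 26.2. Rounding to 2 decimals alone puts that ratio between 22.7 and 31.0. Its mean over the 6 libraries, 0.453 FPKM, was under the filter of 0.5 FPKM, so it did not enter the fit. Its log2 difference depended on the pseudocount, at 1.36 (SE 0.0303) with 0.5, 2.87 with 0.1 and 0.86 with 1.

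TFCP2L1, a grainyhead-related transcription factor known from the collecting duct of the kidney and from stem cells, was at 1.47, 1.55 and 1.63 FPKM with the scramble siRNA and at 2.51, 2.80 and 2.59 FPKM with siDYRK2. Again no library of one group reached into the other. TFCP2L1 (ENSG00000115112; GRCh38 chromosome 2, 121216587 to 121285207, minus strand) had means of 1.55 ± 0.0800 and 2.63 ± 0.150 FPKM (SD, n = 3), a ratio of 1.70 and a log2 difference of 0.61 (SE 0.0511).

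SGK1, the serum- and glucocorticoid-regulated kinase, was at 1.31, 1.38 and 1.51 FPKM with the scramble siRNA and at 2.14, 2.27 and 2.31 FPKM with siDYRK2. The siDYRK2 values were all higher, though the gene stayed at a low level in both groups. SGK1 (ENSG00000118515; GRCh38 chromosome 6, 134169246 to 134318112, minus strand) had means of 1.40 ± 0.101 and 2.24 ± 0.0889 FPKM (SD, n = 3), a ratio of 1.60 and a log2 difference of 0.53 (SE 0.0519). It has 10 coding transcripts in the annotation, which start at 10 positions.

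A pair of known targets stood lower. CRISPLD2, a secreted protein that glucocorticoids raise in airway smooth muscle, was at 2.32, 2.72 and 2.87 FPKM with the scramble siRNA and at 0.59, 0.69 and 0.62 FPKM with siDYRK2. The scramble libraries differed more among themselves than for the other tested members, with a coefficient of variation of 10.8%, but none came near the siDYRK2 range. CRISPLD2 (ENSG00000103196; GRCh38 chromosome 16, 84819984 to 84920768, plus strand) had means of 2.64 ± 0.284 and 0.633 ± 0.0513 FPKM (SD, n = 3), so the scramble mean was 4.16 times the siDYRK2 mean, and the log2 difference was −1.47 (SE 0.0857). Of the tested genes 32 had a more negative difference. Antisense genes on the other strand share 206 and 98 of its 7965 exonic bases, and whether counting used strand is not given in the sources used here.

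SPSB1, an adaptor that brings substrates such as inducible nitric oxide synthase to a cullin ubiquitin ligase, was at 9.99, 10.34 and 10.30 FPKM with the scramble siRNA and at 5.50, 5.10 and 5.56 FPKM with siDYRK2. Its values were tight within each group and far apart between them. SPSB1 (ENSG00000171621; GRCh38 chromosome 1, 9292880 to 9369532, plus strand) had means of 10.2 ± 0.192 and 5.39 ± 0.250 FPKM (SD, n = 3), so the scramble mean was 1.90 times the siDYRK2 mean, and the log2 difference was −0.86 (SE 0.0388).

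Read across the members, 5 of the 8 that entered the fit were called higher and 3 lower by limma at an adjusted p under 0.05, where 20.4% of all tested genes were called higher and 17.9% lower, 38.3% together. Groups did not overlap for any of the 9 members, of which 6 stood higher and 3 lower, against 51.7% of tested genes (27.4% higher and 24.3% lower). Because the members were chosen on this comparison, nothing is read from these counts. A ratio of means of at least 2 was reached upwards by FKBP5 and KLF9 among the tested members and downwards by CRISPLD2, where 1.27% of tested genes reached it upwards and 1.94% downwards.

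**Figure D2:**
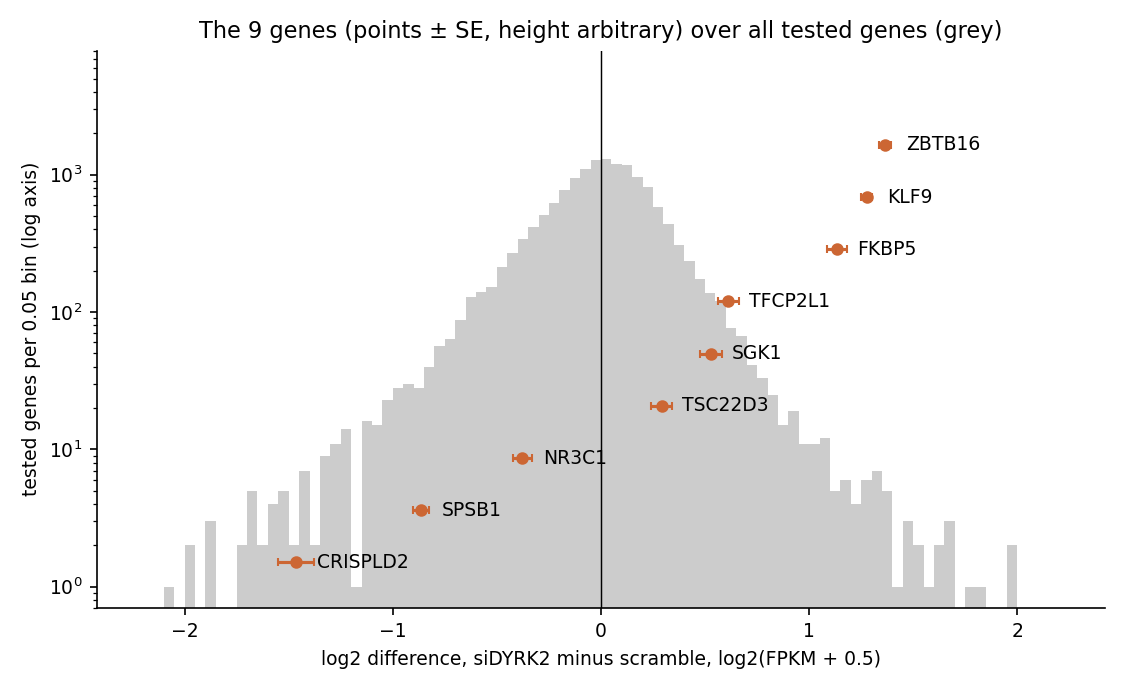
Log2 differences (siDYRK2 minus scramble) of the 9 genes as points with SE, at arbitrary heights, over a histogram of the 15121 tested genes in grey with a log vertical axis; 13 tested genes lie beyond ±2.2 and are not drawn, and ZBTB16 is drawn although it was not tested. FKBP5, KLF9 and ZBTB16 lie at 1.13 to 1.36 and CRISPLD2 at −1.47, in the sparse tails, while NR3C1 and TSC22D3 lie within the bulk at −0.38 and 0.29.

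The order of the levels changed between the groups. In FPKM, which is per length, the scramble order was FKBP5, NR3C1, SPSB1, TSC22D3, CRISPLD2, KLF9, TFCP2L1, SGK1 and ZBTB16, and among neighbours only the library values of TFCP2L1 and SGK1 overlapped. With siDYRK2 the order was FKBP5, NR3C1, TSC22D3, SPSB1, KLF9, TFCP2L1, SGK1, ZBTB16 and CRISPLD2, and among neighbours only SPSB1 and KLF9 overlapped. FKBP5 was thus first in both groups, and CRISPLD2 went from the fifth place to the last. The ratio of KLF9 to CRISPLD2 within a library, which does not depend on how libraries are scaled, was 0.785, 0.684 and 0.641 with the scramble siRNA and 9.05, 7.52 and 8.03 with siDYRK2.

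Relatives of the members are genes of the same family. Of 17 relatives 12 were tested, of which 2 rose (16.7%, against 20.4% of all tested genes) and 4 fell (33.3%, against 17.9%) by limma, with a median log2 difference of −0.06 against 0.01 over all tested genes. TSC22D1, the relative of TSC22D3, fell from 16.1 ± 1.17 to 9.05 ± 0.210 FPKM (limma adjusted p = 6.8e-05; SD, n = 3). KLF13, which shares the repressor domain type of KLF9, fell from 14.9 to 11.2 FPKM (limma adjusted p = 0.0011), the kinase SGK3 fell from 2.66 to 1.94 FPKM (limma adjusted p = 0.011) and CRISPLD1 from 1.85 to 1.33 FPKM (limma adjusted p = 0.0070). FKBP4 rose from 20.3 ± 0.343 to 23.8 ± 0.306 FPKM (limma adjusted p = 0.0014; SD, n = 3), and TFCP2 rose from 11.1 to 12.2 FPKM (limma adjusted p = 0.024). TFCP2 lost its call when scramble replicate 2 or 3 or siDYRK2 replicate 2 was left out, which left 1 relative called higher. The 6 that did not pass were KLF16 (log2 difference 0.06), TSC22D2 (4.47 and 4.33 FPKM), TSC22D4 (9.90 and 9.31), SPSB2 (5.12 and 5.48), SPSB3 (3.65 and 2.63) and UBP1 (10.9 and 11.7 FPKM). The 5 below the filter were NR3C2, KLF14, ZBTB32, SGK2 and SPSB4, at means of at most 0.357 FPKM in either group.

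FKBP4 encodes FKBP52, a co-chaperone that competes with FKBP51 for the receptor and favours its transport to the nucleus. The ratio of FKBP5 to FKBP4 was 0.665, 0.691 and 0.639 in the scramble libraries and 1.27, 1.31 and 1.23 in the siDYRK2 libraries. FKBP5 was thus the lower of the pair in every scramble library and the higher in every siDYRK2 library. The ratio of KLF9 to KLF13 averaged 0.123 ± 0.00507 and 0.461 ± 0.0181, and that of TSC22D3 to TSC22D1 averaged 0.409 ± 0.0208 and 0.900 ± 0.0174 (SD, n = 3). These ratios contain the members and are descriptions.

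**Figure D3:**
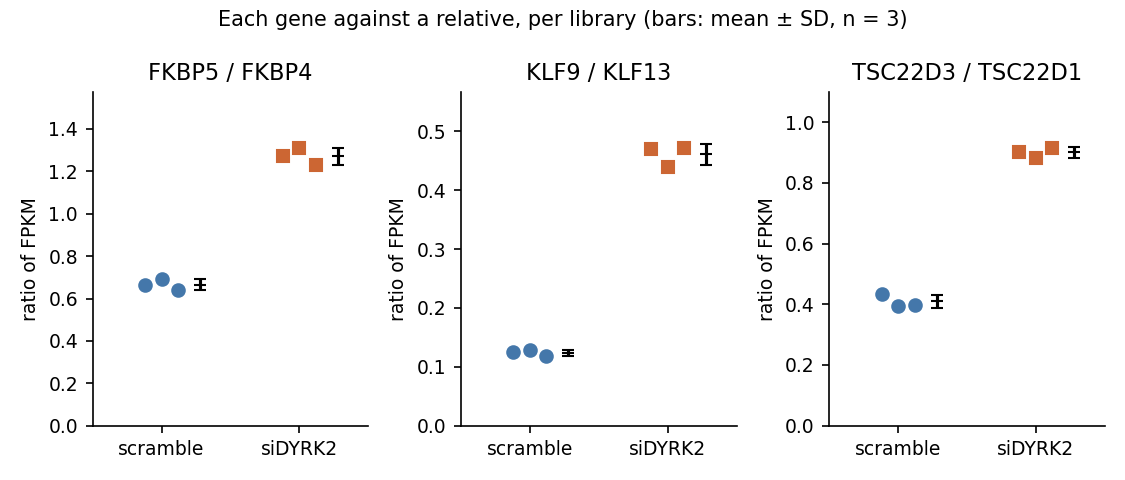
Ratio of FPKM within each library for FKBP5 over FKBP4, KLF9 over KLF13 and TSC22D3 over TSC22D1, in 3 scramble (circles) and 3 siDYRK2 libraries (squares), with bars for mean ± SD. All 3 ratios are higher in every siDYRK2 library, for FKBP5 over FKBP4 at 1.23 to 1.31 against 0.639 to 0.691.

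Other genes known to be induced by glucocorticoids went both ways. Of a list of 51 such genes, 37 were tested, 10 were below the filter and 4 had no row. By limma 15 of the 37 rose (40.5%, against 20.4% of all tested genes) and 12 fell (32.4%, against 17.9%), while 10 did not pass. Their median log2 difference was −0.05, against 0.01 over all tested genes, and the range ran from −1.25 to 2.88. A ratio of at least 2 was reached upwards by 8 of the 37 and downwards by 3.

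Among genes of that list averaging 2 FPKM or more, the largest increases were those of ANGPTL4, PER1, PDK4 and SCNN1A. ANGPTL4, a secreted inhibitor of lipoprotein lipase, rose from 11.2 ± 0.638 to 85.9 ± 12.8 FPKM (limma adjusted p = 3.7e-06; SD, n = 3). PER1, a clock repressor with a receptor element of its own, was at 1.14, 1.18 and 1.12 FPKM and rose to 5.85, 5.87 and 6.23 FPKM (limma adjusted p = 1.8e-06). PDK4, which holds back pyruvate oxidation, rose from 1.10 to 4.21 FPKM (limma adjusted p = 5.2e-05). SCNN1A, the alpha subunit of the epithelial sodium channel, rose from 11.1 ± 0.386 to 26.4 ± 2.02 FPKM (limma adjusted p = 1.6e-05; SD, n = 3). Others past a ratio of 2, which the naming rule did not take, included MT1X, MAOA and TXNIP, and MT1X belongs to a family of near-identical metallothioneins whose reads may be shared.

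The largest decreases of the list were those of FBXO32, LPIN1, CDKN1C and CEBPB. FBXO32, a ubiquitin ligase subunit of muscle wasting also called atrogin-1, fell from 3.22 ± 0.331 to 1.06 ± 0.0896 FPKM (limma adjusted p = 7.2e-05; SD, n = 3). LPIN1, a phosphatidate phosphatase, fell from 13.2 to 5.74 FPKM (limma adjusted p = 7.1e-06), and CDKN1C, the CDK inhibitor p57, fell from 3.09 to 1.29 FPKM (limma adjusted p = 3.7e-04). CEBPB, a transcription factor of the acute phase, fell from 82.4 to 53.2 FPKM (limma adjusted p = 1.9e-05). FOXO3 also fell, from 5.80 to 5.26 FPKM (limma adjusted p = 0.0498), a call that was lost when any 1 of the 6 libraries was left out.

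**Figure D4:**
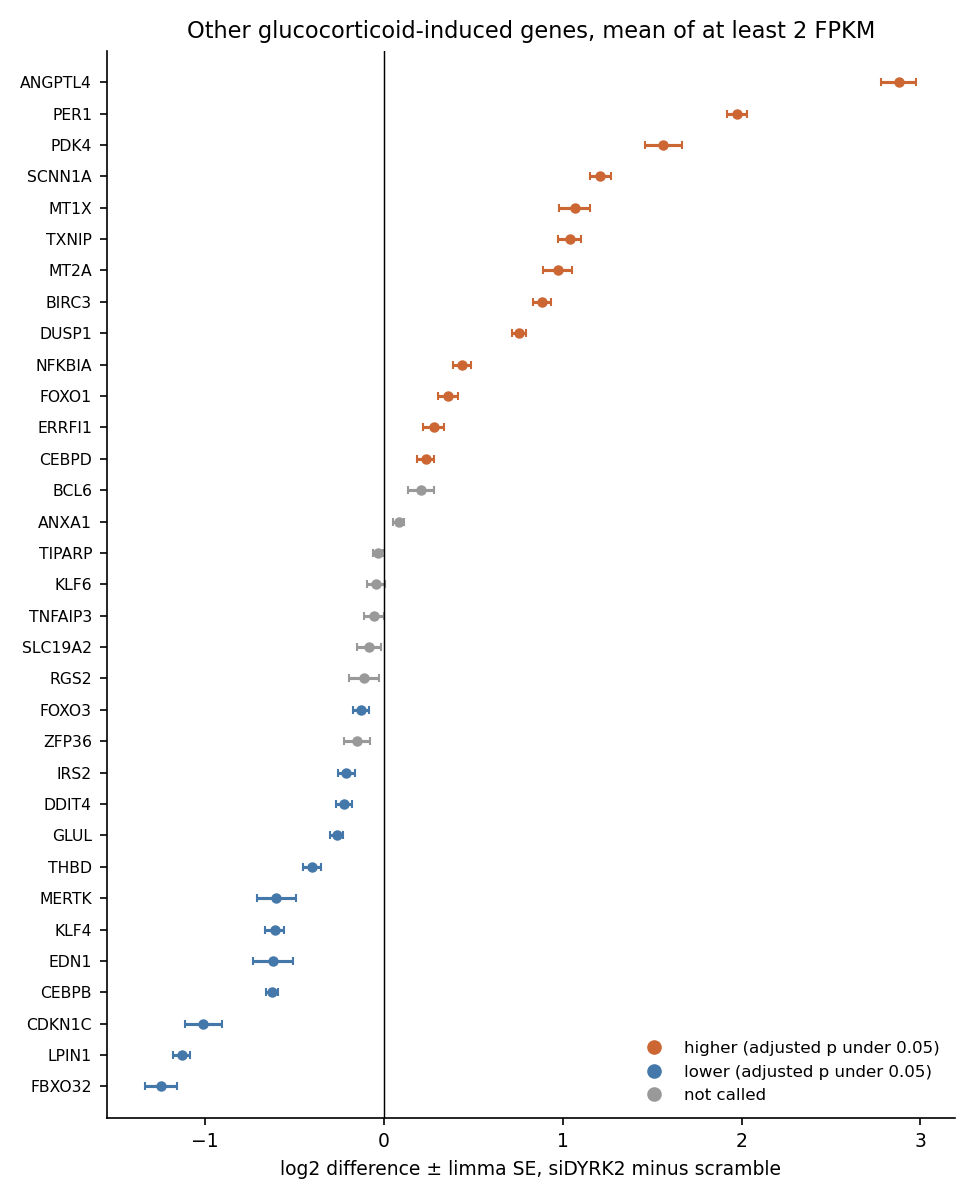
Log2 difference (siDYRK2 minus scramble, horizontal axis) with limma SE for the 33 tested genes of the list of other glucocorticoid-induced genes that averaged 2 FPKM or more, sorted by size and coloured by call. The 13 genes called higher reach 2.88 (ANGPTL4) and the 12 called lower reach −1.25 (FBXO32).

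Most of the tested inflammatory genes that the receptor is known to hold down were lower. Of 21 such genes 10 were tested, 9 were below the filter and 2 had no row. By limma 7 of the 10 fell (70%, against 17.9% of all tested genes) and 1 rose (10%, against 20.4%). The median log2 difference was −0.45, but −0.04 with no filter on low values and −0.72 with a mean of at least 2 FPKM. The cytokine LIF fell from 41.6 ± 1.29 to 17.3 ± 0.667 FPKM (limma adjusted p = 2.8e-06; SD, n = 3), and the collagenase MMP1 fell from 281 to 140 FPKM (limma adjusted p = 7.7e-06). The chemokine CXCL2 fell from 37.2 to 20.4 FPKM (limma adjusted p = 1.3e-05) and the growth factor CSF2 from 3.13 to 1.70 FPKM (limma adjusted p = 0.0026). The 1 called higher was CCL20, at 0.287 and 0.797 FPKM, which passed the filter of 0.5 FPKM only through the siDYRK2 group where it is high, so its call is no support. IL11 (1.28 and 1.31 FPKM) and CXCL1 (10.3 and 9.59 FPKM) did not pass.

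The chaperones that hold the receptor ready differed by small amounts. Of 16 tested genes 6 rose (37.5%, against 20.4% of all tested genes), 1 fell (6.25%, against 17.9%) and 9 did not pass, with a median log2 difference of 0.09 and no ratio of 2 in either direction. PTGES3, the p23 co-chaperone that stabilises the mature complex, rose from 86.7 ± 5.27 to 111 ± 3.16 FPKM (limma adjusted p = 0.0012; SD, n = 3). STIP1, the adaptor between HSP70 and HSP90 also called HOP, rose from 54.7 to 62.7 FPKM (limma adjusted p = 0.0085), and HSPA4, an exchange factor for HSP70, rose from 31.0 to 36.3 FPKM (limma adjusted p = 0.017). BAG1, a co-chaperone that can inhibit the receptor, fell from 6.34 to 5.06 FPKM (limma adjusted p = 0.0030). HSP90AA1 and HSP90AB1, which encode HSP90 itself, were at 180 and 477 FPKM with the scramble siRNA and at 170 and 455 FPKM with siDYRK2 and did not pass the test. Leaving out scramble replicate 2, or siDYRK2 replicate 1, lowered the number of chaperones called higher to 3, and HSPA4 lost its call in both fits. Leaving out scramble replicate 3 gave 2 called lower, BAG1 and HSP90AA1.

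Coregulators that the receptor recruits to chromatin included a pair of acetyltransferases that fell. Of 21 tested genes 8 rose (38.1%, against 20.4% of all tested genes), 2 fell (9.52%, against 17.9%) and 11 did not pass, with a median log2 difference of 0.06. The paralogous acetyltransferases CREBBP and EP300 fell, CREBBP from 9.24 ± 0.104 to 6.26 ± 0.0777 FPKM (limma adjusted p = 7.1e-05; SD, n = 3) and EP300 from 8.42 to 6.71 FPKM (limma adjusted p = 0.0090). KAT2B, another acetyltransferase, rose from 2.96 to 4.44 FPKM (limma adjusted p = 0.0023) and MED1, the Mediator subunit that contacts nuclear receptors, from 17.2 to 20.4 FPKM (limma adjusted p = 0.0011). ARID1A, a subunit of the SWI/SNF remodeller, rose from 5.70 to 6.56 FPKM (limma adjusted p = 0.022) and the methyltransferase EHMT2 from 11.6 to 13.0 FPKM (limma adjusted p = 0.028). The count that rose was 3 to 5 of 21 when any 1 of the 6 libraries was left out, near the share of all tested genes. EHMT2 lost its call in 8 of 14 alternatives, among them every fit that left out 1 library except scramble replicate 1, and ARID1A lost its call without scramble replicate 2 and without siDYRK2 replicate 1 or 3. The p160 coactivators NCOA1 (4.49 and 4.44 FPKM), NCOA2 (5.95 and 5.72 FPKM) and NCOA3 (7.74 and 7.87 FPKM) did not pass.

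Of 11 activators and substrates of SGK1 9 were tested, of which 2 rose (22.2%, against 20.4% of all tested genes) and 3 fell (33.3%, against 17.9%), or 2 fell when any 1 library was left out. NEDD4L, the ubiquitin ligase that SGK1 phosphorylates and that removes the sodium channel from the membrane, fell from 4.33 ± 0.136 to 2.01 ± 0.0608 FPKM (limma adjusted p = 2.9e-05; SD, n = 3), next to the rise of SCNN1A. NDRG1, whose phosphorylated protein and not its transcript is a readout of SGK1 activity, fell from 8.46 to 5.99 FPKM (limma adjusted p = 5.0e-04). The third that fell was FOXO3. MTOR, the kinase of the complex that activates SGK1, rose from 6.62 to 9.15 FPKM (limma adjusted p = 3.6e-04), and the other that rose was SCNN1A. PDPK1, which phosphorylates SGK1, was at 4.99 and 5.12 FPKM and RICTOR, a subunit of that complex, at 5.34 and 5.58 FPKM, and neither passed. SCNN1B averaged 0 and 0.00667 FPKM, and SCNN1G had no row.

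**Figure D5:**
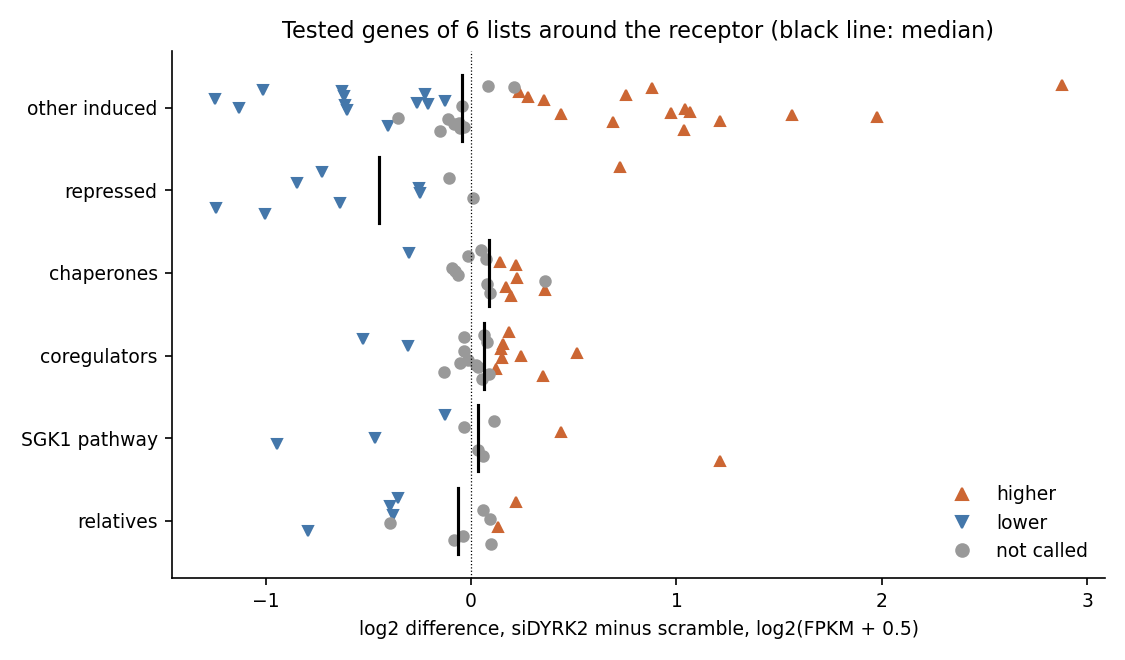
Log2 difference (siDYRK2 minus scramble, horizontal axis) of each tested gene in 6 lists around the receptor, with triangles for genes called higher or lower, grey circles for genes not called and a black line for each list's median. Medians are −0.05 for other induced genes, −0.45 for repressed inflammatory genes, 0.09 for chaperones, 0.06 for coregulators, 0.03 for the SGK1 pathway and −0.06 for the relatives of the members.

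Short words in the members' transcripts were looked up because an earlier scan of these same differences had singled out ATCTATA and its neighbour CATCTAT, both present in the DYRK2 transcript, among transcripts that were lower. The words come from the same data and support nothing here. In 1 coding transcript per gene (GENCODE 29), 3 of the 9 members held one of them, against 24.8% of 11917 tested coding genes. NR3C1 and KLF9 have theirs in the 3′ untranslated region and CRISPLD2 has its in the coding region. The DYRK2 word in the coding region is given first, and capitals mark the word.
DYRK2: cggtgctatcaCATCTATAtccaagttacc
NR3C1: aatggggacaaATCTATAttatactgtgt
KLF9: accactacatcCATCTATgccatttacct
CRISPLD2: tttggaaccaaCATCTATgcagatacctc
Of these 3 members NR3C1 and CRISPLD2 stood lower and KLF9 stood higher. SPSB1, the other member that stood lower, does not hold either word in a transcript of 3120 bases.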

How the data were processed

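The deposited table holds FPKM that the authors computed, 1 column per library, rounded to 2 decimals, per the file headers. HISAT2, StringTie and GRCh38 are listed, with no version or role, per the submitters' processing notes. For annotation, strandedness and filters: not given in the sources used here. All 6 columns matched the labels, with 0 others. Depth is unknown. FPKM times length, over single-transcript genes, lay within 0.1 of a whole step for at most 24.3% of values (20% by chance), so no count model was used and no counting interval is given.

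The 15121 genes averaging 0.5 FPKM or more entered limma 3.58.1 (R 4.3.3) as log2(FPKM + 0.5), siDYRK2 minus scramble, mean-variance trend, no block, Benjamini-Hochberg adjustment over all tested genes, threshold 0.05. The fit was tested on simulated data. Sequences were read with Python 3.11.15 and pandas 2.3.3 from RefSeq (GRCh38.p14) and GENCODE 29.

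The members and lists were chosen with earlier results of these data known. Named list genes are up to 4 per direction past the threshold with the largest difference and a mean of at least 2 FPKM, besides the relatives of the members and the genes closest in pattern. Any other gene belongs to a count of 5 or fewer or was chosen after its values were seen. The SE of a member is the ordinary one. A few items of the lists are not reported here. Alternatives were 2 pseudocounts, 2 filters, 2 scalings, no trend, a replicate block and leaving out each library.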

Additional observations from a re-analysis of the deposited data

How the results depend on the processing

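The log2 differences of the 9 members kept their sign under every alternative that could give a value, 13 or 14 per gene. The members called, 5 higher and 3 lower, were 6 and 3 without a filter on low values, which admits ZBTB16, 4 and 2 with a mean of at least 2 FPKM, which drops SGK1 and CRISPLD2, and 5 and 3 otherwise. Pseudocounts of 0.1 and 1 moved KLF9 (1.44 and 1.12), ZBTB16 (2.87 and 0.86), SGK1 (0.64 and 0.43), CRISPLD2 (−1.90 and −1.15), TFCP2L1 (0.73 and 0.51) and, for 1 alone, SPSB1 (−0.81) by more than the spread between replicates. The number of coregulators called higher, 8, was 4 without a filter on low values, 5 with median-ratio size factors and 3 to 5 without 1 library. Repressed inflammatory genes called higher, 1, became 2 without the filter and 0 with a mean of at least 2 FPKM. Leaving out 1 library gave 3 to 6 chaperones called higher, 1 to 2 lower, and 1 to 2 relatives called higher. The values showed no sign of pairing by replicate number: deviations from the group means of same-numbered libraries correlated at −0.077, 0.024 and −0.088. Whether the experiment was paired is not given in the labels, and these correlations cannot settle it. With the replicate block 2495 genes were called higher and 2321 lower, against 3079 and 2714, coregulators called higher were 4 and relatives called higher 1. The median difference of all tested genes, 0.0086, was −0.011 with median-ratio size factors and 0.016 when rescaled without mitochondrial genes. With median-ratio size factors 2701 genes were called higher and 2986 lower, so more genes fell than rose, unlike in the main fit. Fewer calls were made in fits with fewer libraries. Depth is unknown, so its limits were not measured.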

Other observations

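Some genes followed FKBP5 and CRISPLD2 closely over the 6 libraries. Likeness was the Euclidean distance between log2(FPKM + 0.5) profiles centred on their own mean, over genes averaging 2 FPKM or more, and with 2 groups of 3 libraries it mostly measures the difference between the groups. The 5 nearest to FKBP5 of 10315 genes were FAM111B, a protease gene of replicating cells (distance 0.110, from 6.56 ± 0.421 to 15.2 ± 0.359 FPKM), BACE1, the beta-secretase (0.119, from 4.36 to 9.84 FPKM), SLC25A20, the mitochondrial carnitine carrier (0.142, from 2.01 to 4.75 FPKM), APLP1 (0.172, from 1.36 to 3.86 FPKM) and the sulphate transporter SLC26A2 (0.184, from 4.13 to 8.79 FPKM; SD, n = 3). The 5 nearest to CRISPLD2 were the cytokine IL24 (distance 0.211, from 8.03 ± 1.48 to 2.69 ± 0.0814 FPKM; SD, n = 3), the ligand WNT7B (0.260, from 12.1 to 3.93 FPKM), PEG10 (0.262, from 21.6 to 7.03 FPKM), NCEH1 (0.277, log2 difference −1.43) and the sterol enzyme LSS (0.286, log2 difference −1.45).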
